A study of Mus musculus with 24 samples.

Results

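Wild-type (WT) mouse embryo fibroblasts deprived of oxygen and glucose together (OGD) were compared with WT fibroblasts deprived of oxygen alone (OD), which asks what the loss of glucose adds once oxygen is already low. The comparison rests on 4 of the 24 arrays of the series, chosen by their labels: WT OGD replicates 1 and 2, and WT OD replicates 1 and 2. All 4 samples carried both Siah1a and Siah2, genes for ubiquitin ligases, and all spent 12 h at 1% oxygen. The methods place the glucose-free cells in medium with dialyzed serum and the others in complete medium. Whether the complete medium also held dialyzed serum is not given in the sources used here, so serum may differ along with glucose. The methods give each condition as a duplicate and do not say that these were separate cultures. A p-value here therefore measures a spread between duplicate arrays that may be technical, pooled over all groups of the series.

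The series set WT fibroblasts beside Siah1a/Siah2 knockout fibroblasts (KO, as the labels use the term) in 6 conditions, with 2 arrays each. Other arrays used below are KO OGD and KO OD (12 h, the same design in KO cells), WT deprived of glucose alone (GD, 12 h, no oxygen withdrawal) with untreated WT, and WT treated for 6 h with thapsigargin (TG), an inhibitor of the endoplasmic reticulum (ER) calcium pump. Siah1a lay between 178 and 303 in the 12 KO arrays and between 1155 and 1839 in the 12 WT arrays, while Siah2 lay between 239 and 718 in KO arrays and between 505 and 2014 in WT arrays. All levels are normalized fluorescence intensities of bead-array probes, in arbitrary units on a linear scale, and a level of 232 is the upper edge of the background, above which a probe is taken as detected. Levels of different genes come from different probes and are not compared with each other. Because the arrays measured bulk RNA, fewer cells of a type and less RNA per cell cannot be told apart.

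Cells that lose glucose lose fuel for glycolysis and also the hexosamine and mannose sugars from which N-glycans are built, and proteins that enter the ER without them fold poorly. The unfolded protein response (UPR) answers this through the sensors PERK, IRE1 and ATF6. PERK phosphorylates eIF2α, which lowers general translation and raises translation of the transcription factor ATF4, and ATF4 drives genes of amino acid supply and, with its partner CHOP, of cell death. Shortage of amino acids reaches ATF4 through another kinase. ATF6 and the spliced form of XBP1 act on genes for ER chaperones and ER-associated degradation. Glucose is also read by the MondoA and ChREBP transcription factors, whose best known target is Txnip, which encodes a thioredoxin-binding protein that limits glucose uptake. At low oxygen the factor HIF1 turns cells towards glycolysis, so glucose loss at 1% oxygen removes the fuel that hypoxic cells depend on.

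Of 13491 genes tested, 190 (1.41%) were called higher and 303 (2.25%) lower in WT OGD than in WT OD. A call needed a Benjamini-Hochberg adjusted p under 0.05 in limma and a fold change of at least 2. Of those called, 23 rose and 10 fell by at least 4-fold, and the median log2 difference over all genes was -0.02. Each gene was represented by its brightest detected probe. Where called genes had several detected probes, another probe had the opposite sign in 18 of 101 called higher and 55 of 171 called lower. The arrays of WT OGD and WT OD did not overlap for any of the 190 genes called higher or the 303 called lower, so non-overlap marks no called gene apart from the others. With 2 arrays against 2, unchanged genes can often fail to overlap too, and the share over all genes was not counted. Non-overlap is therefore given below as a description only. CHOP (Ddit3) had the highest difference and Txnip the lowest. The error used in the test was pooled over all 12 groups of the series, and the calls depend on that: a fit on the 4 arrays alone, with 2 residual degrees of freedom, called 0 genes higher and 1 lower (Txnip, adjusted p = 0.0484), while the pooled fit had 255 higher and 424 lower genes past 2-fold when its p of 0.05 or less was left unadjusted.

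**Figure D1:**
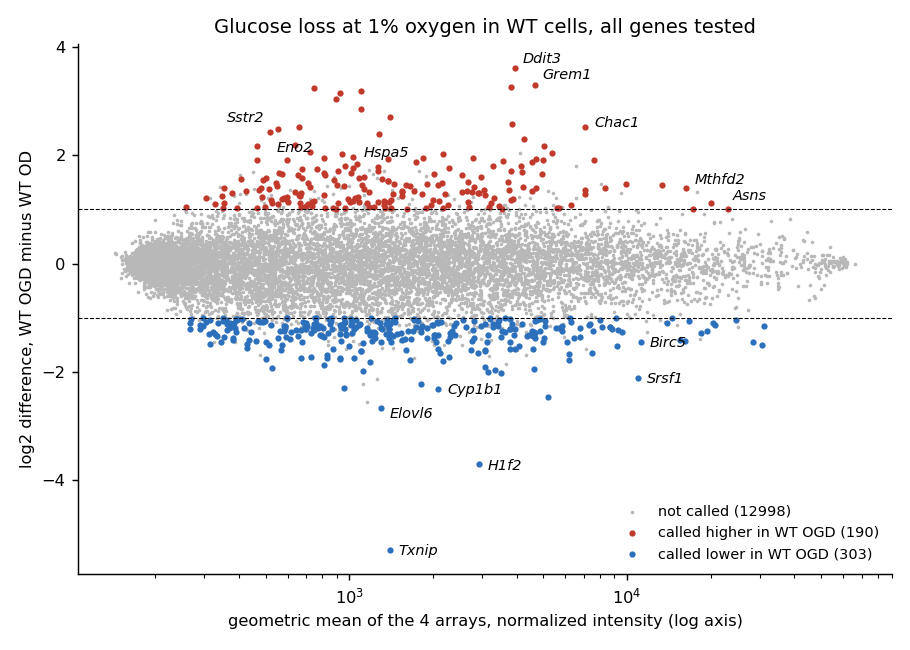
Each point is 1 of the 13491 genes tested: the log2 difference of WT OGD minus WT OD against the geometric mean intensity of the 4 arrays (log axis), with dashed lines at 2-fold. The 190 genes called higher (red) and 303 called lower (blue) span the range of levels, and Txnip and H1f2 lie below all other genes.

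The WT OGD arrays were the least alike of the 12 pairs of duplicates. Between them 8.44% of detected probes differed by at least 2-fold (r = 0.955), against 3.99% between the WT OD arrays (r = 0.973). For the TG duplicates this share was 0.0446% in WT and 0.587% in KO. Such closer pairs enter the pooled error too, so the standard errors and p-values may be too small for this comparison. WT OGD replicate 2 lay farther from WT OD than replicate 1 for 79.5% of the genes called higher and 84.2% of those called lower. Without WT OGD replicate 1 the calls were 407 higher and 832 lower, without WT OGD replicate 2 they were 85 and 94, without WT OD replicate 1 they were 248 and 399, and without WT OD replicate 2 they were 56 and 72. Of 66 named genes that were called, 25 kept the call in all 4 of these fits: Ddit3, Trib3, Chac1, Fgf21, Mthfd2, Slc3a2, Hspa5, Sdf2l1, Sel1l, Selenos, Eno2, Mtss1, Peak1, Gpr146, Sstr2 and Slc16a6 among those higher, and Txnip, H1f2, H2ax, Elovl6, Cyp1b1, Srsf1, Birc5, Parp14 and Irgq among those lower. Elsewhere below, the array whose removal ends a call with the highest adjusted p is given with the call.

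Markers of fibroblasts were present in both groups. Of 10 fibroblast markers, 9 were above background in both groups, and their summed levels were 118414 and 121394 in WT OGD against 125037 and 117289 in WT OD. None of the 10 was called, although Col1a1 and Pdgfra had log2 differences of -1.60 and -1.55. Markers of epithelial, endothelial, blood, muscle and neural cells (25 genes measured) had 0 calls. The epithelial markers summed to 8069 and 2446 in WT OGD and 6316 and 1998 in WT OD, so in both groups replicate 1 was the higher one.

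Of 15 UPR regulators measured, 5 were called higher and 0 lower in WT OGD, with a median log2 difference of 0.78. Ddit3, which encodes the death-promoting transcription factor CHOP, had intensities of 16640 and 11448 in WT OGD against 1230 and 1040 in WT OD. Both OGD arrays were far above both OD arrays, and the log2 difference was 3.61 ± 0.40 (SE; limma adjusted p = 0.000215), with 3.60 from its other probe. Trib3, a pseudokinase gene that CHOP and ATF4 induce, had 9113 and 9760 in WT OGD against 1594 and 1576 in WT OD (log2 difference 2.57 ± 0.28, adjusted p = 0.000215). Here the duplicates of each group almost coincided.

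Ppp1r15a encodes GADD34, the subunit that directs protein phosphatase 1 to eIF2α and so reverses PERK's effect. It had 3456 and 5588 in WT OGD against 1382 and 847 in WT OD (log2 difference 2.02 ± 0.32, adjusted p = 0.00253, or 0.0530 without WT OD replicate 2). The transcription factor genes Cebpg (log2 difference 1.08, and adjusted p = 0.128 without WT OGD replicate 2) and Cebpb completed the list's calls, Cebpb with 13609 and 20086 in WT OGD against 5663 and 6277 in WT OD (log2 difference 1.47, adjusted p = 0.0226, or 0.194 without WT OGD replicate 2). Atf4 itself passed the adjusted p but not the fold: it had 26567 and 27388 in WT OGD and 15050 and 16481 in WT OD, a log2 difference of 0.78 ± 0.15 (adjusted p = 0.00761), with 1.51 from its other probe and 1.14 when the probes were averaged, which was then called. Atf3 was low, with 377 and 426 in WT OGD and 251 and 182 in WT OD (log2 difference 0.91, adjusted p = 0.00397). Both transcripts were higher in both OGD arrays than in either OD array without reaching 2-fold from these probes. The sensor genes Eif2ak3 (PERK), Ern1 (IRE1) and Atf6 had log2 differences of -0.10, -0.08 and 0.40, and Xbp1, whose spliced and unspliced forms were not told apart, had 13308 and 13355 in WT OGD and 7630 and 8842 in WT OD (log2 difference 0.70, adjusted p = 0.134).

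**Figure D2:**
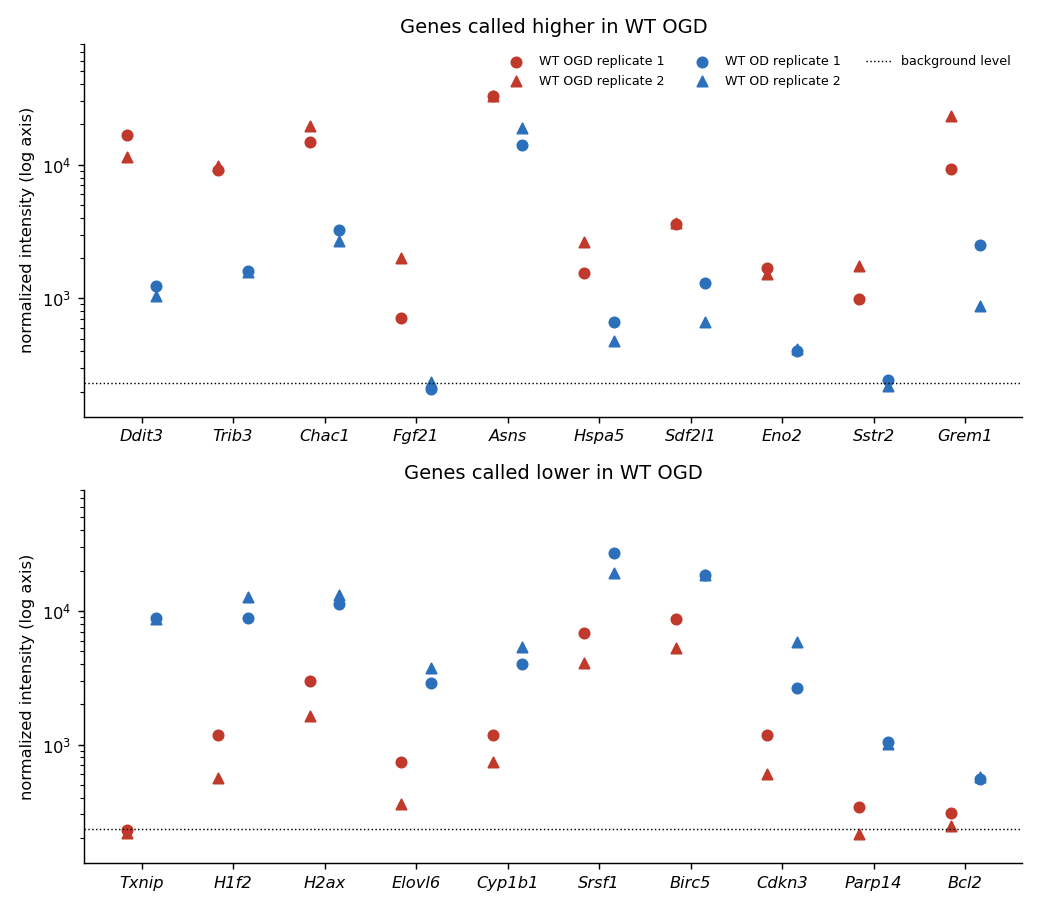
Normalized intensity (log axis) of 10 genes called higher (top) and 10 called lower (bottom) in each array, WT OGD in red and WT OD in blue, with circles for replicate 1, triangles for replicate 2 and a dotted line at the background level of 232. The groups do not overlap, as in all 493 called genes, and the OGD duplicates lie apart for Fgf21 and close together for Trib3 and Sdf2l1.

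Targets of ATF4 beyond the UPR regulators moved the same way where they were called. Of 14 ATF4 effectors, 3 were called higher and 0 lower, with a median of 0.71. Chac1, which encodes an enzyme that degrades glutathione, had 14802 and 19481 in WT OGD against 3235 and 2693 in WT OD (log2 difference 2.52 ± 0.28, adjusted p = 0.000234). Fgf21, a secreted metabolic hormone, had 716 and 1999 in WT OGD against 211 and 236 in WT OD, around the background level (log2 difference 2.42 ± 0.31, adjusted p = 0.000530). Both genes separated the groups, and Fgf21 did so by very different amounts in the duplicates. Stc2, which encodes the secreted glycoprotein stanniocalcin 2, had 2449 and 1468 in WT OGD against 840 and 372 in WT OD (log2 difference 1.76, adjusted p = 0.00816, or 0.122 without WT OD replicate 2). The cystine transporter gene Slc7a11, also on the list, had a log2 difference of -0.38 and was not called.

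In amino acid supply, 2 of 12 genes of amino acid and one-carbon synthesis, 2 of 11 amino acid transporters and 2 of 19 cytosolic tRNA synthetases were called higher, and 0 of each were called lower. Their medians were 0.62, 0.95 and 0.40. Positive differences were found in 12 of 12, 6 of 11 and 18 of 19 of them, so the transporters were split in direction. Mthfd2, a mitochondrial folate enzyme gene, had 25467 and 27307 in WT OGD against 10453 and 9643 in WT OD (log2 difference 1.39 ± 0.21, adjusted p = 0.00152). Asns, which makes asparagine and is a classic ATF4 target, had 32403 and 32803 in WT OGD against 14001 and 18800 in WT OD, a log2 difference of 1.01 that lay at the 2-fold limit (adjusted p = 0.00934, or 0.0720 without WT OD replicate 1). Both were bright probes, with OGD duplicates nearly equal. Slc3a2, the heavy chain shared by several amino acid exchangers, had 1101 and 1953 in WT OGD against 402 and 309 in WT OD (log2 difference 2.06 ± 0.31, adjusted p = 0.00167). The glycine transporter gene Slc6a9 had a log2 difference of 1.26 (adjusted p = 0.0186, or 0.153 without WT OD replicate 1). The seryl- and threonyl-tRNA synthetase genes Sars and Tars had 1.02 and 1.00, with 1.05 and 0.37 from their other probes. Sars lost its call in 3 of the 4 fits that leave out an array (adjusted p = 0.226 without WT OGD replicate 2), and Tars in 2 (0.100 without WT OD replicate 2). By contrast, Psat1 and Phgdh of serine synthesis had log2 differences of 0.06 and 0.33 and were not called.

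Of 20 chaperones and oxidoreductases of the ER lumen, 5 were called higher and 0 lower, with a median of 0.65. Hspa5 encodes BiP, the main ER chaperone and the classic mark of the UPR. It had 1534 and 2628 in WT OGD against 665 and 477 in WT OD (log2 difference 1.83 ± 0.24, adjusted p = 0.000602). Sdf2l1, whose product works with BiP's cochaperones, had 3594 and 3637 in WT OGD against 1306 and 665 in WT OD (log2 difference 1.96 ± 0.29, adjusted p = 0.00147). In both genes the lowest OGD array was above the highest OD array by at least the gap between the OD duplicates. The cochaperone gene Dnajb9 (log2 difference 1.42, with adjusted p = 0.0554 without WT OGD replicate 2) and Creld2 (1.39, adjusted p = 0.0869 without WT OD replicate 2) were called in the full fit, as was Hyou1 (1.06, adjusted p = 0.117 without WT OD replicate 2). Calr, encoding the lectin chaperone calreticulin, had 1.35 and was not called, and the disulfide isomerase gene P4hb had -0.16.

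Of 15 genes of ER-associated degradation, which returns misfolded proteins to the cytosol, 2 were called higher and 0 lower, with a median of 0.08. Sel1l, the adaptor of the HRD1 ligase, had 6216 and 5861 in WT OGD against 2227 and 2482 in WT OD (log2 difference 1.36 ± 0.16, adjusted p = 0.000379), but its other probes gave 0.17 to 0.51. Selenos, an ER membrane selenoprotein of the same complex, had 12072 and 10025 in WT OGD against 5226 and 3918 in WT OD (log2 difference 1.28 ± 0.19, adjusted p = 0.00122, or 1.37 from its other probe). Both were tight within groups. Of 24 genes of ER-Golgi transport 0 were called in either direction (median 0.23). Of 27 genes of hexosamine and N-glycan synthesis, the pathway that glucose feeds, 1 was called: Stt3a, a catalytic subunit of the oligosaccharide transferase, with a log2 difference of 1.05 (adjusted p = 0.00864, or 0.0963 without WT OD replicate 2).

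**Figure D3:**
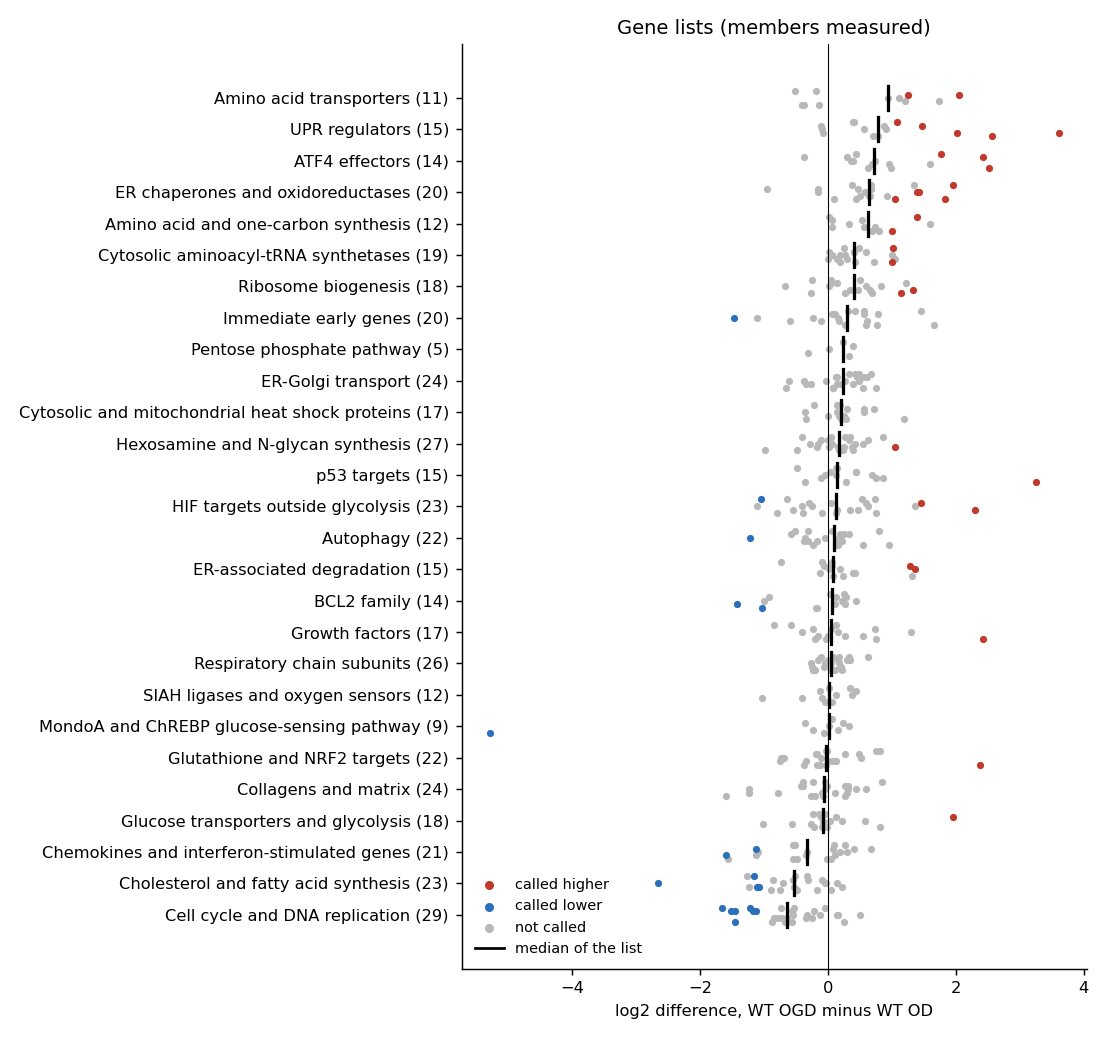
Log2 difference of WT OGD minus WT OD for every measured member of 27 gene lists, ordered by the list's median (black bar), with members called higher in red, called lower in blue and not called in grey. Lists of the UPR, ATF4, amino acid supply and ER chaperones have medians from 0.40 to 0.95, and ribosome biogenesis has 0.40. The lists of ER-associated degradation, ER-Golgi transport and N-glycan synthesis lie lower, at 0.08, 0.23 and 0.17. Cell cycle and lipid synthesis lists lie at -0.65 and -0.53, and Txnip stands alone at -5.29.

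The sequences below are the places in the promoters of genes called higher where elements known from the UPR occur, and they are shown because these elements are how ATF6, XBP1 and ATF4 are known to reach their targets. The promoters are RefSeq sequences of build GRCm38.p6 that run from 250 bases before to 50 bases after each start site, and 32 of the 37 named genes called higher had one. The named genes were picked in part from UPR, ATF4 and ER chaperone lists, so shares among the 32, here and below, were partly set by that choice. Searched on both strands, the ER stress element (CCAAT and CCACG with 9 bases between them) occurred in 15 of 10860 tested genes with a promoter (0.138%). It occurred in 0 of 246 genes called lower and in 2 of 155 called higher (1.29%), and these were the 2 found among the 32. Each is shown 5′ to 3′ in the direction of its gene, with the parts of the element in capitals, on the reverse strand in Creld2:
Hspa5 (chr2:34772020-34772049, plus strand): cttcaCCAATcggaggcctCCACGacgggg
Creld2 (chr15:88819515-88819544, plus strand): cttctCGTGGcgagcctcaATTGGtccaca
These 2 elements end 47 and 108 bases before the start site, and no element was found in the windows of the other 30.

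The core of the amino acid response element bound by ATF4 and C/EBP proteins (TGATG followed by any base and AA) occurred in 5 of the 32 named genes, in 12 of 155 genes called higher (7.74%), in 6 of 246 called lower (2.44%) and in 335 of 10860 tested (3.08%). The 5 are given in the direction of the gene, with the core in capitals, read on the reverse strand except in Asns:
Asns (chr6:7693217-7693240, minus strand): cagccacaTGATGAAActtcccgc
Chac1 (chr2:119351041-119351064, plus strand): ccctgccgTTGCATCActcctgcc
Fgf21 (chr7:45615614-45615637, minus strand): cccccccaTTGCATCAtccgtcca
Tars (chr15:11399658-11399681, minus strand): gagtcccgTTGCATCAgctggtta
Trib3 (chr2:152344031-152344054, minus strand): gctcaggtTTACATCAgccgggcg
Chac1, Fgf21 and Tars share the core TTGCATCA. The palindrome CACGTG, a site read by many basic leucine zipper and helix-loop-helix factors, occurred in 6 of the 32, in 31 of 155 genes called higher (20%), in 24 of 246 called lower (9.76%) and in 1188 of 10860 tested (10.9%). These are matches of letters, and whether any factor bound there was not measured.

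Txnip had the largest change of any gene. It had intensities of 231 and 216 in WT OGD, both below background, against 8842 and 8625 in WT OD. The fall was at least 37.7-fold, measured against the background level (fitted log2 difference -5.29 ± 0.20, adjusted p = 8.58e-10), and its other probe gave -4.15. No other member of the 9-gene glucose-sensing list was called, and the list's median was 0.01. Arrdc4, a paralogue of Txnip and likewise a known MondoA target, had 1005 and 2494 in WT OGD against 2807 and 1226 in WT OD, so that the groups overlapped (log2 difference -0.23 ± 0.48, adjusted p = 0.873). The genes of MondoA (Mlxip), ChREBP (Mlxipl) and their partner Mlx had -0.35, 0.07 and 0.34.

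Most glycolysis genes and HIF1 targets were not called, as over all genes, where 1.41% were called higher and 2.25% lower. Of 18 genes of glucose transport and glycolysis, 1 was called higher and 0 lower, with a median of -0.07. Eno2, a neuronal enolase and HIF1 target, had 1684 and 1508 in WT OGD against 402 and 420 in WT OD (log2 difference 1.95 ± 0.17, adjusted p = 3.43e-05). The duplicates of each group nearly coincided, and the groups were wide apart. Slc2a1, the glucose transporter GLUT1, had 46055 and 56625 in WT OGD and 31905 and 26335 in WT OD, a log2 difference of 0.82 that passed the adjusted p (0.0491) but not the fold. The enzymes Pgk1, Ldha, Gapdh and Aldoa lay between -0.26 and 0.03.

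Of 23 HIF1 targets outside glycolysis, 2 were called higher and 1 lower, with a median of 0.12. Adm, the vasodilator peptide adrenomedullin, had 10926 and 8195 in WT OGD against 3673 and 1013 in WT OD (log2 difference 2.29 ± 0.58, adjusted p = 0.0291, or 0.316 without WT OD replicate 2). The OD arrays differed more than 3-fold from each other, yet both lay below OGD. Ndrg1 had 20963 and 23410 in WT OGD against 6449 and 10099 in WT OD (log2 difference 1.46, adjusted p = 0.0488), a call that leaving out any 1 of the 4 arrays ended (0.238 without WT OD replicate 1). Narf fell to 369 and 287 in WT OGD, against 634 and 723 in WT OD (log2 difference -1.06, adjusted p = 0.00601, or 0.0813 without WT OD replicate 2). Vegfa, the angiogenic growth factor, had 20053 and 11159 in WT OGD and 9529 and 8241 in WT OD (log2 difference 0.76, adjusted p = 0.156). Its groups did not overlap, and it was called only when its 2 probes were averaged (1.07, adjusted p = 0.0146).

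Of 12 genes for SIAH ligases and oxygen sensors, 0 were called in either direction. Siah1a had 1574 and 1386 in WT OGD and 1366 and 1479 in WT OD, so that the groups overlapped (log2 difference 0.06 ± 0.16, adjusted p = 0.917). Siah2 had 1124 and 838 in WT OGD and 989 and 564 in WT OD (log2 difference 0.38 ± 0.29, adjusted p = 0.540). Hif1a had 617 and 1718 in WT OGD and 564 and 1019 in WT OD (log2 difference 0.44 ± 0.74, adjusted p = 0.830). In all of these the duplicates of a group spread as widely as the groups.

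Of 29 cell cycle and DNA replication genes, 7 were called lower and 0 higher, with a median of -0.65, and 25 of the 29 had a negative difference. Over all genes, 47.7% had a positive difference. Birc5, which encodes the mitotic and anti-apoptotic protein survivin, had 8683 and 5290 in WT OGD against 18413 and 18626 in WT OD (log2 difference -1.45 ± 0.21, adjusted p = 0.00118). Cdc20, activator of the anaphase-promoting complex, had 2491 and 4849 in WT OGD against 8086 and 15050 in WT OD (log2 difference -1.67, adjusted p = 0.0155, or 0.188 without WT OD replicate 2). Tk1, thymidine kinase of the salvage route, had 9221 and 3184 in WT OGD against 17447 and 13775 in WT OD (log2 difference -1.52, adjusted p = 0.0142, or 0.123 without WT OGD replicate 2). Aurka (-1.45, with adjusted p = 0.227 without WT OD replicate 2), Aurkb (-1.22, kept in all 4 of the fits that leave out an array), Cdk1 (-1.18, adjusted p = 0.0757 without WT OD replicate 2) and Top2a (-1.13, adjusted p = 0.114 without WT OD replicate 2) were the other calls, so the called members were genes of mitosis and chromosome handling along with Tk1. The other probes of Tk1 gave -0.96 to -0.20. The replicative helicase genes Mcm2 to Mcm7 lay between -0.65 and 0.25 with 0 calls. Without WT OD replicate 2 the list had 2 calls, and with each gene's probes averaged it had 3.

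Outside the lists, 2 further mitotic genes were among the 15 largest falls. Cdkn3, a cyclin-dependent kinase phosphatase, had 1172 and 599 in WT OGD against 2642 and 5817 in WT OD (log2 difference -2.23 ± 0.40, adjusted p = 0.00513, or 0.0916 without WT OD replicate 2). Nusap1, a spindle protein, had 1848 and 2958 in WT OGD against 6026 and 13655 in WT OD (-1.96, adjusted p = 0.00500, or 0.0872 without WT OD replicate 2), with -0.99 to -0.72 from its other probes.

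Among the 15 largest falls were 2 histone genes and 2 splicing factor genes, on none of the lists. Of all 63 histone genes measured, 5 were called lower and 3 higher, with a median of -0.11, and of 9 SR splicing factor genes 4 were called lower and 0 higher, counts made after the values were seen. H1f2, a replication-dependent linker histone, had 1184 and 557 in WT OGD against 8855 and 12654 in WT OD (log2 difference -3.70 ± 0.34, adjusted p = 4.59e-05), and its other probe gave -3.89. H2ax, the histone variant phosphorylated at DNA breaks, had 2973 and 1632 in WT OGD against 11226 and 13242 in WT OD (-2.47 ± 0.29, adjusted p = 0.000373). In both, WT OGD replicate 2 was the lowest array. Srsf1, the founding SR splicing factor, had 6864 and 4070 in WT OGD against 27162 and 19054 in WT OD (-2.11 ± 0.34, adjusted p = 0.00260, or -2.11 from its other probe). Srsf5 had 1980 and 1454 in WT OGD against 5297 and 8330 in WT OD (-1.97, adjusted p = 0.0123, or 0.140 without WT OD replicate 2).

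In lipid synthesis, 4 of 23 genes of cholesterol and fatty acid synthesis were called lower and 0 higher, with a median of -0.53 and 20 negative differences. Of all genes tested, 47.7% had a positive difference. Elovl6, the elongase of long-chain saturated fatty acids, had 739 and 362 in WT OGD against 2875 and 3717 in WT OD (log2 difference -2.66 ± 0.32, adjusted p = 0.000379). Dhcr7 (-1.16, with adjusted p = 0.299 without WT OD replicate 2), Hsd17b7 (-1.11, adjusted p = 0.161 without WT OGD replicate 2) and Pmvk (-1.08, adjusted p = 0.159 without WT OGD replicate 2), all of cholesterol synthesis, each lost the call without WT OGD replicate 2 and without WT OD replicate 2, and kept it without either replicate 1. The other probe of Hsd17b7 gave -0.30. The regulators Srebf1 and Srebf2 had 0.22 and 0.14.

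Genes of signalling and defence were also among the largest falls. Cyp1b1, a cytochrome P450 target of the aryl hydrocarbon receptor, had 1179 and 744 in WT OGD against 4034 and 5389 in WT OD (log2 difference -2.32 ± 0.22, adjusted p = 6.44e-05). Parp14, an interferon-inducible ADP-ribosyltransferase, had 343 and 213 in WT OGD against 1049 and 1010 in WT OD (-1.93 ± 0.28, adjusted p = 0.00117). Eif2ak2 encodes PKR, an eIF2α kinase activated by double-stranded RNA, and had 2885 and 858 in WT OGD against 7573 and 5301 in WT OD (-2.01, adjusted p = 0.0223, or 0.258 without WT OGD replicate 2). Samd9l, another interferon-stimulated gene, had 2839 and 881 in WT OGD against 5351 and 6610 in WT OD (-1.91, adjusted p = 0.0150, or 0.177 without WT OGD replicate 2). Of 21 chemokines and interferon-stimulated genes on the fixed list, 2 were called lower and 0 higher (median -0.32): the transcription factor gene Irf1 (-1.60) and Ifit2 (-1.13). Both calls ended without WT OD replicate 2, where the differences were -1.06 and -1.01. The other probes gave -1.35 to -0.28 for Irf1 and -0.96 for Ifit2.

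The Wnt receptor gene Fzd2 had 703 and 265 in WT OGD against 1803 and 2526 in WT OD (log2 difference -2.31, adjusted p = 0.00578, or 0.0821 without WT OD replicate 2). Snn, which encodes the small membrane protein stannin, had 4329 and 702 in WT OGD against 6289 and 7936 in WT OD (-2.02, adjusted p = 0.0311, or 0.235 without WT OGD replicate 2). The OGD duplicates of Snn differed more than 6-fold, and its other probes gave -0.17 to -0.15. Irgq had a log2 difference of -1.99 ± 0.33 (adjusted p = 0.00344) from its brightest probe and 0.13 to 0.92 from its others, so its probes disagreed in direction.

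Most members of the cell death, autophagy and oxidative stress lists were not called, as over all genes, where 1.41% were called higher and 2.25% lower. In the BCL2 family 2 of 14 genes were called lower and 0 higher (median 0.07): Bcl2l11, the pro-apoptotic BIM, with -1.43 (adjusted p = 0.0355, or 0.374 without WT OGD replicate 2), and the anti-apoptotic Bcl2 with 308 and 246 in WT OGD against 553 and 568 in WT OD (-1.03, adjusted p = 0.00998, or 0.107 without WT OGD replicate 2). The other probes of Bcl2l11 gave -0.91 to 0.70, and those of Bcl2 gave -0.79 to -0.11. Of 22 autophagy genes 1 was called, the kinase gene Ulk2, at -1.22 (adjusted p = 0.0528 without WT OD replicate 2, and -0.99, under 2-fold, without WT OGD replicate 2). Of 22 glutathione and NRF2 targets 1 was called, Hmox1, which encodes heme oxygenase 1. It had 3188 and 2676 in WT OGD against 879 and 355 in WT OD (2.39 ± 0.59, adjusted p = 0.0246, or 0.247 without WT OD replicate 2). Cytosolic and mitochondrial heat shock proteins had 0 calls among 17 (median 0.20).

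Of 15 p53 targets 1 was called higher and 0 lower, the stress sensor gene Gadd45a, which ATF4 also induces. It had 5465 and 25673 in WT OGD against 821 and 1855 in WT OD (log2 difference 3.26 ± 0.75, adjusted p = 0.0183, or 0.210 without WT OGD replicate 2). The other p53 targets, Cdkn1a (0.27) and Mdm2 (0.75) among them, were not called. Of 20 immediate early genes 1 was called, Egr3, lower by -1.47 (adjusted p = 0.0414, or 0.400 without WT OGD replicate 2, or 0.06 from its other probe). In ribosome biogenesis 2 of 18 genes were called higher, Rrp9 (1.34, with adjusted p = 0.461 without WT OD replicate 2) and Wdr43 (1.14, adjusted p = 0.225 without WT OGD replicate 2). The median of the ribosome biogenesis list was 0.40. Collagens and matrix (24 genes), respiratory chain subunits (26) and the pentose phosphate pathway (5) had 0 calls, with medians of -0.06, 0.05 and 0.24. Of 17 growth factors only Fgf21, described above, was called.

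Other genes among the 15 largest rises came from no common list. Grem1, a secreted antagonist of bone morphogenetic proteins, had 9299 and 22975 in WT OGD against 2488 and 883 in WT OD (log2 difference 3.30 ± 0.65, adjusted p = 0.00777, or 0.115 without WT OD replicate 2). Nr1d1, the clock repressor REV-ERBα, had 1922 and 5737 in WT OGD against 576 and 234 in WT OD (3.18 ± 0.62, adjusted p = 0.00800, or 0.114 without WT OD replicate 2). Usp53 had 999 and 5231 in WT OGD against 225 and 260 in WT OD (3.24 ± 0.60, adjusted p = 0.00608, or 0.0709 without WT OGD replicate 2), with 0.25 to 1.65 from its other probes. In each, replicate 2 of WT OGD was the higher by more than 2-fold. Mtss1, which links membranes to actin, had 1654 and 4623 in WT OGD against 306 and 317 in WT OD (3.15 ± 0.43, adjusted p = 0.000883). Smurf1, a ubiquitin ligase acting on BMP and TGF-β signalling, had a log2 difference of 3.05 (adjusted p = 0.00513, or 0.0704 without WT OGD replicate 2), and Rgcc, a regulator of the cell cycle, 2.71 (adjusted p = 0.00590, or 0.0794 without WT OGD replicate 2). Peak1 and Gpr146 are described with the other conditions next.

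The KO arrays share no array with the WT comparison and give the same contrast in the KO cells. There 34 genes (0.252%) were called higher and 15 (0.111%) lower in KO OGD than in KO OD. Of the 190 genes called higher in WT, 188 (98.9%) also had a positive difference in KO, where 48.5% of all genes did, and their median in KO was 0.83. Of the 303 called lower in WT, 297 (98.0%) had a negative difference in KO, with a median of -0.62. Calls were fewer: 14 of the 190 and 11 of the 303 were called in KO, which is 41.2% and 73.3% of the KO calls in those directions. The shared calls included Txnip, with 257 and 233 in KO OGD against 11585 and 12532 in KO OD (log2 difference -5.62, adjusted p = 3.42e-10), Ddit3 (2.70, adjusted p = 0.0120), Chac1 (2.13, adjusted p = 0.00732) and Eno2 (1.46, adjusted p = 0.00285). Hspa5 had 0.82 in KO (adjusted p = 0.154).

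**Figure D4:**
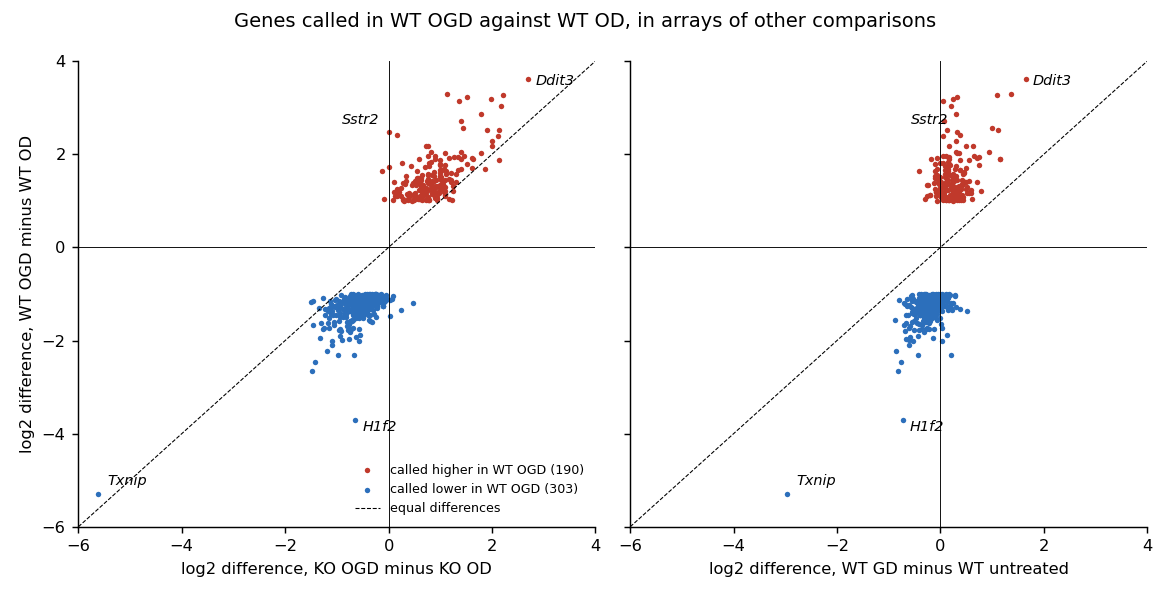
Log2 difference of WT OGD minus WT OD for the 190 genes called higher (red) and 303 called lower (blue), against the log2 difference of KO OGD minus KO OD (left) and of WT GD minus untreated WT (right), with a dashed line at equal differences. In KO nearly all called genes lie on the same side of 0 as in WT, with Sstr2 at 0.01, and in GD the differences crowd around 0 apart from Txnip at -2.96.

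The difference of the glucose response between WT and KO was tested gene by gene, and 1 gene (0.00741%) passed. Sstr2, a somatostatin receptor gene, had 986 and 1741 in WT OGD against 246 and 222 in WT OD, a log2 difference of 2.49 ± 0.21 (adjusted p = 3.28e-05). In KO it had 166 and 220 in OGD against 191 and 188 in OD, all below background. The WT response minus the KO response was 2.48 ± 0.30 (adjusted p = 0.0142), and the call was lost without WT OD replicate 2, without either KO OD array and without KO OGD replicate 1. A second Sstr2 probe gave -0.14 for WT OGD minus WT OD, so the rise was measured by 1 of 2 probes. Sstr2 was also high in WT cells under ER stress with glucose and oxygen present: it had 1077 and 1033 under thapsigargin and 1092 and 1303 under tunicamycin (TM), an inhibitor of N-glycosylation, against 287 and 240 in untreated WT (log2 differences 2.01 and 2.19, limma adjusted p = 4.09e-05 and 1.85e-05). In KO cells it had 218 and 228 under thapsigargin, 217 and 173 under tunicamycin, and 169 and 183 untreated. All of these lay below background, so Sstr2 was not detected in KO under these stresses either. Fgf21 had a similar shape in OGD and OD only, with 233 and 245 in KO OGD against 215 and 209 in KO OD, and its difference of responses of 2.25 ± 0.44 did not pass (limma adjusted p = 0.330). Unlike Sstr2, Fgf21 was high in KO under thapsigargin, at 6230 and 4412 against 213 and 220 in untreated KO.

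At the same threshold, fewer genes were called where glucose was removed without removing oxygen. In WT GD against untreated WT, 0 genes were called higher and 1 (0.00741%) lower, which was Txnip. It had 486 and 624 in GD against 5217 and 3510 in untreated cells, a log2 difference of -2.96 (adjusted p = 4.77e-06). Of the genes called higher under OGD, 82.6% had a positive difference in GD, where 51.1% of all genes did, with a median of 0.21. Of those called lower 84.5% had a negative one, with a median of -0.22. Ddit3 had 1595 and 4076 in GD against 1296 and 508 in untreated cells (1.65), Trib3 had 1.00 and Chac1 1.10, none of them called in limma (adjusted p = 1.00 for each). Arrdc4 had 616 and 464 in GD against 3551 and 1638 in untreated cells (-2.17, not called). Its groups did not overlap there as they did at 1% oxygen, but the difference of its responses was not called either (1.94 ± 0.68, adjusted p = 0.389).

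The test of the glucose response at 1% oxygen minus that without oxygen withdrawal called 9 genes (0.0667%), 6 with a higher difference and 3 with a lower one. The fall of Txnip was deeper at 1% oxygen by 2.33 ± 0.28 on the log2 scale (adjusted p = 0.00835), and the OGD level lay below background, so this size is a fitted value and not a bound. Its glucose-fed levels differed too, at 8842 and 8625 in OD against 5217 and 3510 in untreated cells. Cyp1b1 had 3723 and 5389 in GD against 4459 and 3413 in untreated cells (0.20), and its difference of responses was -2.52 ± 0.31 (adjusted p = 0.00835). H1f2 had 5942 and 3971 in GD against 6904 and 9436 in untreated cells (-0.73), and its difference of responses was -2.97 ± 0.48 (adjusted p = 0.0346). Both genes were lowest in the 2 OGD arrays among these 8 WT arrays.

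The 6 genes with a higher difference were Eno2, Peak1, Gpr146, Slc16a6, Hyal1 and Sstr2. Eno2 had 385 and 393 in GD against 401 and 326 in untreated cells, and its difference of responses was 1.85 ± 0.24 (adjusted p = 0.0115). Peak1, a pseudokinase gene of the actin cytoskeleton, had 2621 and 3369 in WT OGD against 415 and 405 in WT OD (log2 difference 2.86 ± 0.28, adjusted p = 7.79e-05), and 492 and 597 in GD against 459 and 422 in untreated cells. Gpr146, a G protein-coupled receptor gene, had 1763 and 1431 in WT OGD against 351 and 216 in WT OD (2.53 ± 0.27, adjusted p = 0.000191), and lay near background in GD and in untreated cells. For Gpr146 a second probe gave 0.16. Slc16a6, of the monocarboxylate transporter family, had 907 and 1467 in WT OGD against 435 and 319 in WT OD (1.63 ± 0.21, adjusted p = 0.000612), with 1.72 to 2.48 from its other probes, and 497 and 445 in GD against 580 and 670 in untreated cells. Hyal1, a lysosomal hyaluronidase, had 2015 and 1347 in WT OGD against 502 and 500 in WT OD (1.72 ± 0.18, adjusted p = 0.000122, or -0.09 from its other probe). In each of these genes, the WT OGD arrays were the highest of the 8 WT arrays with or without glucose and oxygen. The count of 9 was itself unsteady, at 606 without WT OGD replicate 1 and 0 without WT OD replicate 2.

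**Figure D5:**
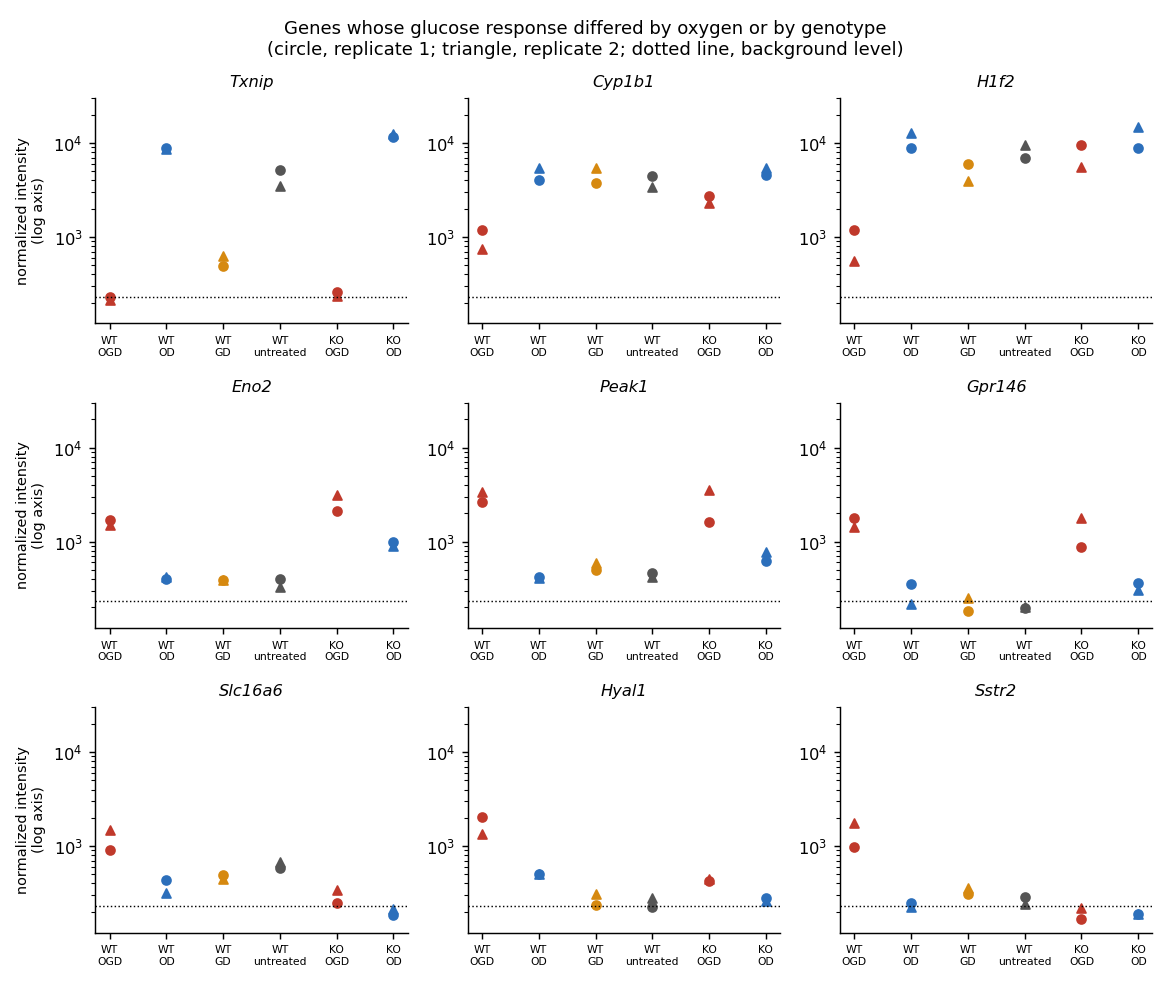
Normalized intensity (log axis) of the 9 genes whose glucose response differed by oxygen, of which Sstr2 also differed by genotype, in each array of WT OGD, WT OD, WT GD, untreated WT, KO OGD and KO OD, with circles for replicate 1, triangles for replicate 2 and a dotted line at the background level. Txnip is low wherever glucose was absent, while Eno2, Peak1 and Gpr146 are high in WT OGD and KO OGD and Sstr2, of these 6 groups, in WT OGD.

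Thapsigargin, which empties ER calcium stores with glucose and oxygen present, gives a reference for ER stress in the same cells. The TG and untreated arrays are not among the 4 that the OGD comparison sets against each other, although they enter its pooled error. In WT TG against untreated WT, 282 genes (2.09%) were called higher and 229 (1.7%) lower. Of the 190 genes higher in OGD, 49 (25.8%) were also called higher by TG and 2 lower. Of the 303 lower in OGD, 26 (8.58%) were also called lower by TG and 3 higher. The lists differed in size of change: ER chaperones had a median of 0.65 under OGD and 1.76 under TG, UPR regulators 0.78 under OGD and 1.40 under TG, and ATF4 effectors 0.71 under OGD and 1.78 under TG. Hspa5 had a log2 difference of 1.83 under OGD and 4.12 under TG, and Ddit3 had 3.61 under OGD and 5.80 under TG. Some went opposite ways: Txnip had -5.29 under OGD against 1.77 under TG, and the cholesterol and fatty acid synthesis list had a median of -0.53 under OGD against 0.40 under TG. In all of these the references differ: OGD values are differences from WT OD, and TG values are differences from untreated WT. Set against untreated WT instead, OGD gave 1.71 for Hspa5, 4.09 for Ddit3 and -4.26 for Txnip. Treatment lasted 12 h for OGD and 6 h for TG, and these differences between stresses were not tested.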

How the data were processed

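RNA of WT and KO fibroblasts (24 arrays) was amplified, labelled and hybridised to Illumina Mouse-6 BeadChips. The authors normalized the scans in GenomeStudio and deposited linear intensities; sorted within arrays, these differed at 1 rank by a median of 0.0816%, as quantile normalization leaves them, so a change in total RNA per cell is not visible. A deposited table of un-normalized values was not used, because its 48 columns carry names that match no label. Of 45281 probes, 26900 (59.4%) exceeded the background level (mode 181 plus the upper 0.01 tail) on at least 1 array. GEO's annotation gave 34885 probes 1 gene, 18 several and 10378 none. A gene was represented by its brightest kept probe (13491 genes, 5526 with several).

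Log2 intensities were fitted with limma 3.58.1 in R 4.3.3, with 12 group means, 12 residual and 3.42 prior degrees of freedom, and p-values adjusted over all kept probes. The script was tested on simulated data. Genes named were the 15 highest and 15 lowest called, at most 4 called genes per list and direction, 14 pathway genes, and the leading genes of each difference of responses; Hyal1, Hyou1, Cebpg, Aurkb, Cdk1, Top2a and list members that were not called were named after their values were seen. The members and lists were chosen with earlier results of these data known.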

Additional observations from a re-analysis of the deposited data

Results flagged for a closer look

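The response to glucose loss differed between 1% oxygen and no oxygen withdrawal in WT cells, by limma's test of the difference, for 9 genes. The differences of responses, on the log2 scale, were -2.97 for H1f2, -2.52 for Cyp1b1, -2.33 for Txnip, 1.62 for Hyal1, 1.85 for Eno2, 2.04 for Slc16a6, 2.16 for Sstr2, 2.41 for Gpr146 and 2.56 for Peak1, with adjusted p from 0.00835 to 0.0346. Between WT and KO cells at 1% oxygen, the response differed for Sstr2, by 2.48 (limma adjusted p = 0.0142), and Sstr2 lay below background in the KO arrays. Sstr2, Gpr146 and Hyal1 each have another detected probe, and those gave -0.14, 0.16 and -0.09 for WT OGD minus WT OD. WT and KO fibroblasts may also differ in ways other than the Siah genes, and this was not tested.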

How the results depend on the processing

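The counts of called genes (190 higher, 303 lower, 9 differing by oxygen, 1 by genotype) depended most on how the error was estimated and on single arrays. A fit on the arrays of each comparison alone gave 0, 1, 0 and 0, the 8 WT arrays without and with glucose and oxygen gave 1, 1 and 0, and array weights gave 93, 135, 1 and 1. Without a fold threshold 381 were higher and 627 lower, and with unadjusted p and 2-fold 401 differed by oxygen and 115 by genotype. Averaging a gene's probes gave 154, 184, 14 and 0. Leaving out 1 array at a time gave 56 to 407 higher, 72 to 832 lower, 0 to 606 by oxygen and 0 to 166 by genotype. The other settings (no filter or a looser level, an intensity trend, normalizing again, median centring) stayed within 1.5 times. Same-numbered arrays of different groups deviated together (r = 0.46 between WT OGD and WT OD, lowest 0.13 of 66 pairs of groups), but the labels tie the numbers to no batch. With the replicate block, 249 were higher, 404 lower, 35 differed by oxygen and 2 by genotype; in the 8 WT arrays with the replicate block, 171, 216 and 0. Of 81 genes named, none changed sign outside the fits that leave out an array. In those, Siah1a ranged from -0.036 to 0.15, Siah2 from -0.026 to 0.78, Arrdc4 from -0.88 to 0.43 and Hif1a from -0.30 to 1.18, all uncalled. A fit without 1 array assumes that the lone one varies like the other groups. It also sets that lone replicate against both replicates of the other group, so a deviation shared by same-numbered arrays enters the difference. No negative control was used to set the background level, which limits folds of dim genes such as Txnip, Fgf21 and Sstr2.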

Other observations

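Families on no list were looked at after their values were seen, and so are described with no test. Clock genes with D-box factors (10 measured) had 4 called higher and 0 lower: beside Nr1d1, Dbp had 5402 and 17063 in WT OGD against 2725 and 2412 in WT OD (log2 difference 1.91), Per1 had 1523 and 1758 in WT OGD against 949 and 520 in WT OD (1.22), and Nr1d2 had 1430 and 2783 in WT OGD against 1192 and 677 in WT OD (1.15). Without WT OGD replicate 2 the calls of Dbp and Nr1d2 were lost (adjusted p = 0.379 and 0.406), and without WT OD replicate 2 that of Per1 (0.315). The core clock genes Clock and Arntl had -0.39 and 0.09. In KO, the differences of Nr1d1, Dbp, Per1 and Nr1d2 were 1.99, 1.64, 1.25 and 0.92, with 0 calls.

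Host genes of small nucleolar RNAs had 3 of 7 called higher. Snhg5 had 7469 and 15878 in WT OGD against 3183 and 2191 in WT OD (2.04), Snhg12 had 7262 and 11498 in WT OGD against 2779 and 2070 in WT OD (1.93), and Snhg16 had 5612 and 8449 in WT OGD against 2448 and 1806 in WT OD (1.71). Each was lost in 2 of the 4 fits that leave out an array, with adjusted p = 0.197 for Snhg5 without WT OGD replicate 2, and 0.0813 for Snhg12 and 0.0655 for Snhg16 without WT OD replicate 2. The transcripts of these genes are known to be degraded by nonsense-mediated decay while they are translated. Of 9 SR splicing factor genes, 4 were called lower and 0 higher: Srsf1 and Srsf5, and Srsf2 (-1.43, adjusted p = 0.0819 without WT OD replicate 2) and Srsf6 (-1.12, lost in each of the 4 fits, with adjusted p = 0.171 without WT OD replicate 1). Srsf4 had 0.41.

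Of 63 histone genes, 5 were called lower (H1f2, H2ax, H2ac15, H2ac12 and H3f3a) and 3 higher (H4c12, H4c17 and H4c6), with a median of -0.11. Other than H1f2 and H2ax, each of these calls was lost when 1 array or another was left out, with highest adjusted p from 0.0961 (H2ac15) to 0.390 (H4c6). Probes of near-identical histone copies were not told apart here.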
